A study of Mus musculus with 12 samples.

Results

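Gm8483 on chromosome 14 and LOC115489042 on chromosome 19 are the 2 pseudogenes described here, out of 45906 genes in the deposited table. They were chosen by their own counts, which were higher in every Plekhg5-deficient library than in every library with intact Plekhg5, and because neither lies on chromosome 4, which carries Plekhg5. Their difference between Plekhg5 genotypes is therefore given as a description with no test, and tests are limited to the SOD1G93A comparisons and to other genes. Both passed the filter on low counts, as did 20155 genes in all. LOC115489042 did so only through its counts in the Plekhg5-deficient libraries.

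RNA from the whole spinal cord of mice at 7 months of age was sequenced, with 3 libraries for each of 4 genotypes. Plekhg5+/+ mice served as controls, Plekhg5-/- mice lack functional Plekhg5, Plekhg5+/+ SOD1G93A mice carry the human transgene with intact Plekhg5, and Plekhg5-/- SOD1G93A mice carry both. The background strain was C57BL/6 throughout, the transgene is that of the slowly progressing low-copy line, and no promoter restricts the Plekhg5 deficiency in the sources used here. The comparison of Plekhg5-/- with Plekhg5+/+ mice asks what changes with loss of Plekhg5, and it can be made on 2 backgrounds, without and with the transgene.

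A processed pseudogene arises when a messenger RNA is copied back into DNA and inserted elsewhere in the genome, so it has the sequence of its parent's transcript without the introns and usually without the parent's promoter. A short read from the parent can therefore match the pseudogene as well or nearly as well. Eno1 encodes enolase 1, a glycolytic enzyme that produces phosphoenolpyruvate, and Vamp3 encodes cellubrevin, a SNARE protein of recycling endosomes. Plekhg5 encodes an activator of the small GTPase Rab26 and has a role in autophagy of synaptic vesicles.

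Gm8483 was placed by the deposited annotation (GRCm38.p6) at chr14:14447316-14449088 on the minus strand, as a pseudogene of 1773 exonic bases. GENCODE vM21, on the same genome build, lists a processed pseudogene of that name over 1284 of these bases, at chr14:14447661-14448944. Searched against 141767 GENCODE transcripts, that stretch was 94.3% identical to the Eno1 transcript over 1302 aligned positions, with 56 mismatches. It was 94.5% identical to Gm4735, a processed pseudogene on chromosome 2, 94.2% identical to Eno1b, a second protein-coding enolase gene, and 92.4% identical to Gm5855, a processed pseudogene on chromosome 3. Gm13685, a processed pseudogene on chromosome 2 that was not matched to the count table by name, shared 131 aligned bases at 95.4% identity.

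LOC115489042 spans chr19:10173765-10180504 on the minus strand, with 2463 exonic bases out of 6740 in the span. Inside it, GENCODE lists 1 processed pseudogene, AC135670.1, of 308 bases at chr19:10175854-10176161 on the same strand. This stretch was 94.5% identical to the Vamp3 transcript over 309 aligned positions, with 16 mismatches and 1 gap. The other exonic bases of LOC115489042, like those of Gm8483 outside its GENCODE model, were not searched, since no genome sequence was used here. Eno1 and Vamp3 both lie on chromosome 4, and their annotated starts are 1.84 Mb and 1.03 Mb from that of Plekhg5.

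Stretches of 120 bases from each pseudogene are shown beside the coding sequence of the gene they resemble, because the bases that differ are what separates a read of one from a read of the other. The stretch of Gm8483 is at chr14:14447730-14447849 and that of LOC115489042 at chr19:10176042-10176161, both read on the minus strand, 5′ to 3′. In the pseudogenes, capitals mark bases that differ from the chromosome 4 gene, and in Eno1 and Vamp3 they mark the bases at which Gm8483 and LOC115489042 differ.
Gm8483: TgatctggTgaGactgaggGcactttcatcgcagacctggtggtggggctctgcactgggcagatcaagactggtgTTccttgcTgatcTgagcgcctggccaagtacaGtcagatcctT
Eno1: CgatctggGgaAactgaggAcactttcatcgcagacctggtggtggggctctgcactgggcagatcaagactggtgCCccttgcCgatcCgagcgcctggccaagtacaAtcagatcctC
Gm4735: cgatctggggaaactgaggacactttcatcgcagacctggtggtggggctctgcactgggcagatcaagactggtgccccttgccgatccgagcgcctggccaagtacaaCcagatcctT
Gm5855: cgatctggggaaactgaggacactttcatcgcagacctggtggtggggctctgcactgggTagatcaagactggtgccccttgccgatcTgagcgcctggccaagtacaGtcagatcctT
LOC115489042: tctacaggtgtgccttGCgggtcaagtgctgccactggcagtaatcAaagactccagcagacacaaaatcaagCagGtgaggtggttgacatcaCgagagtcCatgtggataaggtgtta
Vamp3: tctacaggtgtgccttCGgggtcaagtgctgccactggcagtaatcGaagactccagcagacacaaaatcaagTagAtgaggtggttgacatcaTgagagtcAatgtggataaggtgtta
Each stretch was chosen as the gap-free 120 bases at which the member differs most from its chromosome 4 gene. Its count of differences is therefore not typical of the match, and the choice favours more differences in the member than in other copies. Over these bases Gm8483 differed from Eno1 at 10 positions, Gm4735 at 2 and Gm5855 at 4. Over the whole match with Eno1, Gm8483 had 56 mismatches in 1302 aligned positions. LOC115489042 differed from Vamp3 at 7 positions.

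Along the 1284 bases of the GENCODE model of Gm8483, 1210 windows of 75 bases were compared with each relative without gaps. Its other exonic bases were not compared. A window has the length of the study's single-end reads. Against Eno1, 6 windows were identical and 314 differed by at most 2 bases, with a median of 4 differing bases. Gm5855 had the most identical windows, 17, with a median of 5 differing bases. For the stretch of LOC115489042 that resembles Vamp3, 0 of 234 windows were identical and 46 differed by at most 2 bases, with a median of 5. The plot of differing bases along the transcripts shows 1 region of Gm8483 with up to 30 bases differing from Eno1, and 1 region of the chromosome 19 copy with up to 34 differing from Vamp3. A window that spans a gap in the alignment also counts shifted bases as differing, so these peaks are not counts of substituted bases. The gapped alignment with Vamp3 had 16 mismatches and 1 gap in all, and that with Eno1 had 2 gaps.

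**Figure D1:**
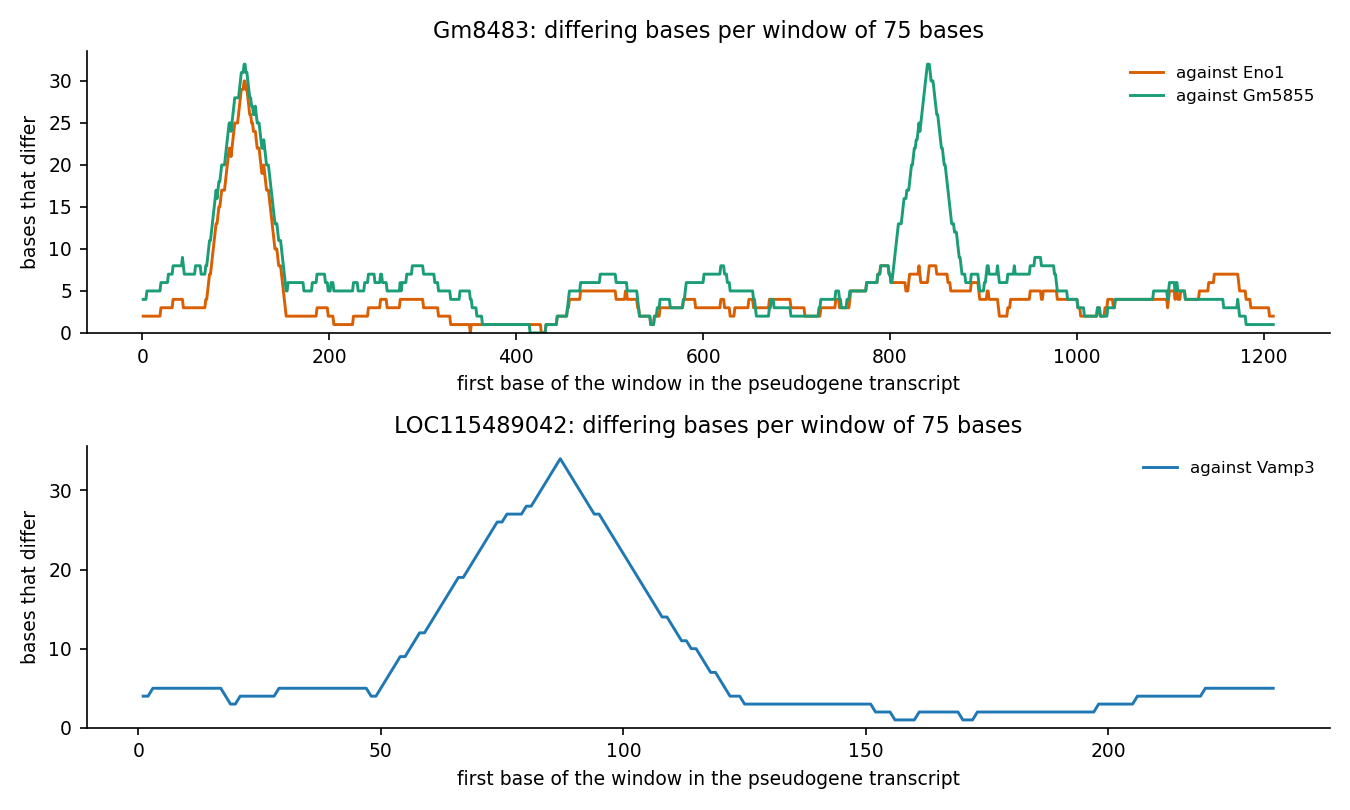
Number of differing bases (y axis) in each window of 75 bases against its first base in the pseudogene transcript (x axis), for Gm8483 against Eno1 and Gm5855 and for the GENCODE pseudogene inside LOC115489042 against Vamp3. Outside the peaks, most windows differ by a few bases, with medians of 4, 5 and 5. Windows were compared without gaps, so those that span an alignment gap also count shifted bases.

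The genotype labels were checked first. Plekhg5 had 669 to 815 counts in the 6 libraries with intact Plekhg5 and 112 to 160 in the 6 Plekhg5-/- libraries, and human SOD1 had 142348 to 196852 counts with the transgene and 5 to 187 without it. Library totals ran from 30415643 to 38743628 counts. In the marker lists, spinal Hox genes summed to 70.3 to 119 CPM per library and forebrain genes to 3.54 to 5.16 CPM. Among the 9 cell type lists, whose markers were all detected, 3 did not overlap between Plekhg5 genotypes without the transgene and 3 with it. Where nothing differs, 3 against 3 libraries still lie apart with a probability of 0.1 per list. No list lay apart in the same direction on both backgrounds. Microglial markers (P2ry12, Cx3cr1 and Aif1) summed to 73.7 to 81.6 CPM with Plekhg5 against 82.3 to 118 CPM without it, and in transgenic mice to 129 to 190 against 101 to 110 CPM. Without the transgene, astrocyte markers summed to 4467 to 4600 CPM with Plekhg5 against 4730 to 5325 without it, and red cell markers to 413 to 726 against 340 to 411. In transgenic mice, endothelial markers summed to 47.8 to 55.5 CPM with Plekhg5 against 62.0 to 88.3 without it, and Schwann cell markers to 193 to 317 against 426 to 607. The part of such differences in the members' levels was not tested, and in whole tissue fewer cells of a type and less RNA per cell cannot be told apart.

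Gm8483 had deposited counts of 49.18, 42.88 and 40.05 in the Plekhg5+/+ libraries and 167.85, 133.66 and 124.56 in the Plekhg5-/- libraries. In transgenic mice the counts were 43.45, 36.65 and 46.81 when Plekhg5 was intact, against 126.76, 135.9 and 160.9 when it was not. On both backgrounds the lowest library without Plekhg5 held over 100 counts and the highest with Plekhg5 under 50, so the groups did not overlap. Scaled to library size, the level was 1.33 ± 0.101 CPM (SD, n = 3) in Plekhg5+/+ against 4.29 ± 0.541 CPM in Plekhg5-/- mice, and with the transgene 1.32 ± 0.10 against 4.07 ± 0.138 CPM. The log2 difference with Plekhg5 loss was 1.69 (SE 0.137) without and 1.62 (SE 0.138) with the transgene, a 3.22-fold and a 3.07-fold higher level.

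LOC115489042 had far fewer counts. Its deposited counts were 2, 5.5 and 5.5 in Plekhg5+/+ and 68.5, 49 and 41.5 in Plekhg5-/- libraries. In transgenic mice they were 3.5, 1 and 3 when Plekhg5 was intact, against 56, 60.5 and 73 when it was not. Every library with Plekhg5 was therefore within a few counts of 0, and every library without it held over 40. The level was 0.133 ± 0.0652 CPM (SD, n = 3) in Plekhg5+/+ against 1.6 ± 0.363 CPM in Plekhg5-/- mice, and with the transgene 0.0772 ± 0.0394 against 1.82 ± 0.0833 CPM. The fitted log2 differences were 3.46 (SE 0.337) without and 4.38 (SE 0.368) with the transgene.

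**Figure D2:**
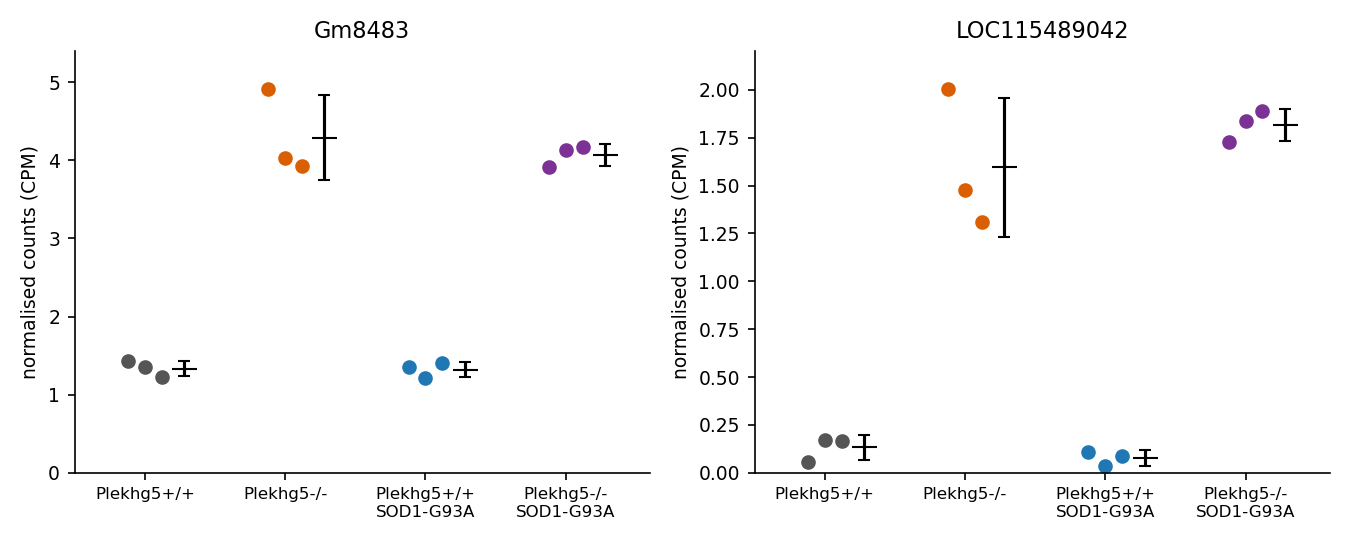
Normalised counts (CPM, y axis) of Gm8483 and LOC115489042 in the 3 libraries of each genotype (points), with the mean and SD beside them (bars). On both backgrounds all Plekhg5-/- libraries lie above all Plekhg5+/+ libraries, for Gm8483 around 4.29 and 4.07 CPM against 1.33 and 1.32.

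How well these ratios are known depends on the depth. Summed over 3 libraries and rounded, Gm8483 had 426 counts in Plekhg5-/- against 132 in Plekhg5+/+ mice. The ratio per library size was 3.22, with a binomial 95% interval of 2.64 to 3.95. With the transgene the sums were 424 and 127 and the ratio 3.08 (interval 2.52 to 3.78). For LOC115489042 the ratio rested on 159 counts against 13, and was 12.2 with an interval of 6.94 to 23.4. With the transgene it rested on 190 counts against 8, and was 21.9 (interval 10.9 to 51.4). These intervals cover counting error only, and those of LOC115489042 on the 2 backgrounds overlap. They treat the rounded sums as counts of single reads, although the deposited counts include fractions. Because this contrast chose the members, selection can raise the ratios, and the intervals are no test of a difference.

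Per kilobase of exon, so that the genes can be set beside each other, Gm8483 reached 0.752 CPM per kb in Plekhg5+/+ and 2.42 in Plekhg5-/- mice, and LOC115489042 reached 0.0541 and 0.648. Eno1 stood at 186 and 133 CPM per kb in the same mice and Vamp3 at 25.1 and 22.3. The members were thus low in every genotype next to the genes they resemble. Ordered by mean CPM, Gm8483 was lowest in Plekhg5+/+ SOD1G93A, followed by Plekhg5+/+, Plekhg5-/- SOD1G93A and Plekhg5-/- mice. LOC115489042 had the same lower pair, with Plekhg5-/- SOD1G93A mice highest. In both genes the lower 2 genotypes overlapped each other, as did the upper 2, and the gap lay between them.

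Among all 20155 genes, 46 (0.228%) were higher in every Plekhg5-/- library than in every Plekhg5+/+ library of the same background, on both backgrounds. The members were chosen for such a rise, but it does not single them out, as only 4 of the 46 lie on chromosome 4. Of the 46, 4 had a fitted log2 difference over 1 on both, namely LOC115489042, the long noncoding RNA Gm30120, Gm8483 and Angptl7. The last was named after its values were seen. Gm30120 and Angptl7 lie on chromosome 4. Called genes (edgeR's quasi-likelihood test, Benjamini-Hochberg adjusted p under 0.05) numbered 6 (0.0298%) without and 7 (0.0347%) with the transgene, and since these contrasts chose the members, nothing is read from the members' place in them. Without the third Plekhg5+/+ library the first count was 59, and without the second Plekhg5+/+ SOD1G93A or the second Plekhg5-/- SOD1G93A library the second count was 4. Just below the members in the ordering by the smaller of the log2 differences stood Angptl7 (1.57 and 1.41), Ttc34 (0.59 and 1.07) and Gm5855 (0.54 and 0.51).

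The SOD1G93A transgene was not part of the choice, and neither member passed the threshold with it in edgeR's quasi-likelihood test. Each of these comparisons shares libraries with those of Plekhg5 loss. With Plekhg5 intact, the log2 difference of Gm8483 was −0.01 (SE 0.148, adjusted p = 0.985) and that of LOC115489042 −0.74 (SE 0.531, adjusted p = 0.545). In Plekhg5-/- mice they were −0.08 (SE 0.126, adjusted p = 0.959) and 0.18 (SE 0.242, adjusted p = 0.953). The 95% interval with Plekhg5 intact ran from −0.30 to 0.28 on the log2 scale for Gm8483. For LOC115489042 it ran from −1.78 to 0.30, so that at 1 to 5.5 counts per library a fall of well over 2-fold was not excluded. With Plekhg5+/+ and Plekhg5+/+ SOD1G93A libraries alone, LOC115489042 failed the filter on low counts. It was tested only through its counts in Plekhg5-/- libraries, so its adjusted p with Plekhg5 intact decides nothing. In these comparisons edgeR called 498 genes (2.47%) with Plekhg5 intact and 1 (0.00496%), human SOD1, without Plekhg5. The first count varied with single libraries, from 2 without the second Plekhg5+/+ library and 4 without the first, through 223 without the first Plekhg5+/+ SOD1G93A library, 313 without the second Plekhg5-/- SOD1G93A and 323 without the second Plekhg5-/- library, to 771 without the second Plekhg5+/+ SOD1G93A library. The other count rose to 3, 5 and 9 without the second Plekhg5-/-, the third Plekhg5+/+ or the first Plekhg5+/+ SOD1G93A library.

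Whether the difference with Plekhg5 loss depended on the transgene was tested as an interaction. The difference of differences was −0.07 on the log2 scale for Gm8483 (SE 0.194, adjusted p = 0.922). For LOC115489042 it was 0.92 (SE 0.584, adjusted p = 0.628), with a 95% interval of −0.22 to 2.07. This value also rests on the few counts in libraries with Plekhg5. edgeR called 0 genes (0%) in this test, with 1824 at an unadjusted p under 0.05, while DESeq2 called 95 genes, or 112 with a prior on fold changes. Leaving out the third Plekhg5+/+ library gave 40 calls, and leaving out the third Plekhg5+/+ SOD1G93A or the third Plekhg5-/- SOD1G93A library gave 1.

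The counts of both members included fractions. The authors counted a read with several alignments as a fraction at each of them, so a value that is not whole shows that reads were shared with another place or feature. All 12 values of Gm8483 were not whole within 0.005, and none was a multiple of 0.5. For LOC115489042, 6 of 12 values were not whole and all 12 were multiples of 0.5. The 12 values of each of Eno1, Eno1b, Gm4735 and Gm5855 were not whole either, nor were 7 of the 12 of Vamp3, whereas all 12 of Plekhg5 were whole. Over the table, 17.3% to 18.1% of the values of a library were not whole.

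Of the genes that Gm8483 resembles, Eno1 lay lower without Plekhg5 and the others level or higher. Eno1 had 408, 371 and 352 CPM in Plekhg5+/+ and 299, 258 and 249 in Plekhg5-/- libraries, so the groups did not overlap. In transgenic mice it had 367, 353 and 392 CPM with Plekhg5 against 253, 262 and 243 without it, again with no overlap. Eno1 was thus lower where Gm8483 was higher. Its log2 difference was −0.49 (SE 0.0791, adjusted p = 0.103 by edgeR) without the transgene, where DESeq2 called it (adjusted p = 1.25e-05). With the transgene Eno1 fell by 0.55 (SE 0.0792, edgeR adjusted p = 0.0326).

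Single libraries decided on which side of the threshold Eno1 lay. Without the transgene it passed when the third Plekhg5+/+ or the first Plekhg5-/- library was left out (edgeR adjusted p = 0.0212 and 0.018). With the transgene it no longer passed without any one of 8 libraries, namely the second Plekhg5+/+, the second Plekhg5-/- and each of the 3 Plekhg5+/+ SOD1G93A and 3 Plekhg5-/- SOD1G93A libraries (edgeR adjusted p from 0.0688 to 0.208). The log2 difference itself stayed between −0.57 and −0.43 without and between −0.58 and −0.51 with the transgene.

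The other copies, Eno1b, Gm5855 and Gm4735, did not pass the test with edgeR. Eno1b had 137 ± 8.09 CPM (SD, n = 3) in Plekhg5+/+ and 184 ± 18.8 in Plekhg5-/- mice, and 134 ± 7.04 against 175 ± 6.29 with the transgene. Gm5855 had 16.6 ± 2.00 against 24.1 ± 2.80 CPM, and 16.1 ± 1.21 against 22.8 ± 1.11 with the transgene. In both genes the Plekhg5-/- libraries lay above the others on both backgrounds. Their log2 differences were 0.42 and 0.38 for Eno1b (edgeR adjusted p = 0.216 and 0.262) and 0.54 and 0.51 for Gm5855 (adjusted p = 0.253 and 0.262), past no threshold with edgeR. DESeq2 called both genes on both backgrounds, with adjusted p between 0.000606 and 0.00985.

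Gm4735 had 141 ± 8.44 against 152 ± 14.2 CPM (SD, n = 3) without and 138 ± 7.24 against 146 ± 6.17 with the transgene. Its groups overlapped on both backgrounds, with log2 differences of 0.12 and 0.08 (edgeR adjusted p = 0.976 and 0.747). Among the enolase pseudogenes Gm8483, Gm5855 and Gm4735, Gm8483 had the highest log2 difference on each background, Gm5855 the next and Gm4735 the lowest. Gm8483 was chosen for its rise, so nothing is read from its first place.

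**Figure D3:**
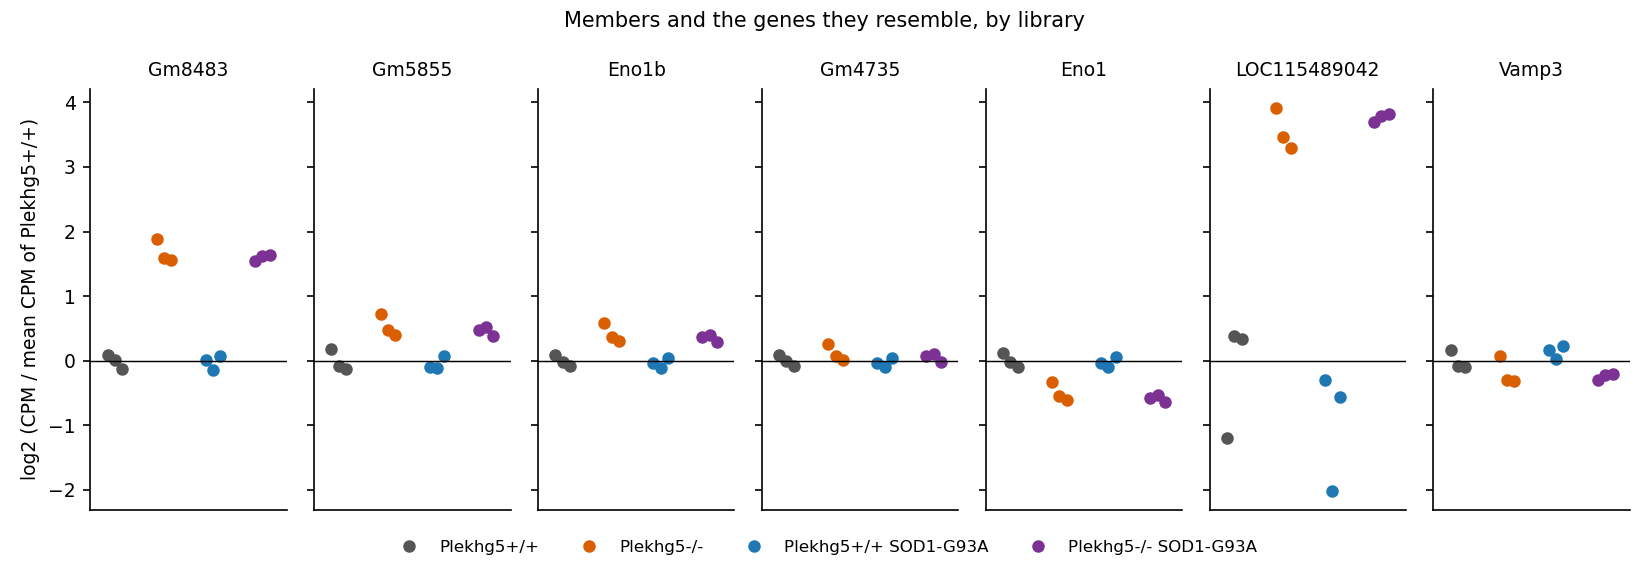
Log2 ratio of each library's CPM to the mean of the Plekhg5+/+ libraries (y axis), for the members and the genes they resemble, with 1 point per library and colours for the 4 genotypes. Gm8483, Gm5855 and Eno1b lie above 0 in all libraries without Plekhg5 and Eno1 below 0, on both backgrounds, and LOC115489042 lies above 3.

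Summed over Eno1, Eno1b, Gm4735, Gm5855 and Gm8483, the level was 673 ± 46.9 CPM (SD, n = 3) in Plekhg5+/+ and 633 ± 63.2 in Plekhg5-/- mice, and these groups overlapped. With the transgene it was 660 ± 35.3 against 600 ± 22.7 CPM, and the groups, at 627 to 698 and 576 to 621, did not overlap. Within the sum, Eno1 took 55.8% to 56.4% in every library with Plekhg5 and 41.9% to 42.4% in every library without it. Gm8483 took 0.193% to 0.206% with and 0.647% to 0.723% without Plekhg5. Both shares varied far less within a Plekhg5 genotype than between the genotypes. The transgene moved them little, with Eno1 at 42.4% in each Plekhg5-/- library and at 41.9% to 42.3% with the transgene.

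In CPM, the 5 genes differed between Plekhg5 genotypes by very unequal amounts. Without the transgene Eno1 was lower by 109 CPM (SE 22.5, from a mean of 377 to 268), while Eno1b was higher by 46.7 (SE 11.8), Gm4735 by 11.8 (SE 9.56), Gm5855 by 7.52 (SE 1.98) and Gm8483 by 2.96 (SE 0.317). With the transgene Eno1 was lower by 118 CPM (SE 12.7, from 371 to 253), while Eno1b was higher by 40.5 (SE 5.45), Gm4735 by 7.75 (SE 5.49), Gm5855 by 6.78 (SE 0.946) and Gm8483 by 2.75 (SE 0.0987). Of the 4 genes with a higher mean, Gm8483 thus differed least in CPM and most as a fold. Its place by fold is favoured by the choice of Gm8483 for its rise. The difference of the sum was −39.8 CPM (SE 45.4) without and −59.9 CPM (SE 24.2) with the transgene.

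Vamp3, the gene that part of LOC115489042 resembles, had 59.2, 50.1 and 49.7 CPM in Plekhg5+/+ and 55.9, 43.1 and 42.8 in Plekhg5-/- libraries, which overlap. In transgenic mice it had 59.6, 54.0 and 62.2 CPM with Plekhg5 against 42.9, 45.6 and 45.9 without it, which do not overlap. The log2 differences were −0.16 (SE 0.105, edgeR adjusted p = 0.976) and −0.39 (SE 0.105, adjusted p = 0.402), neither past the threshold.

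Of the sum of Vamp3 and LOC115489042, the pseudogene took 0.0611% to 0.344% in libraries with Plekhg5 and 2.97% to 3.96% in libraries without it. In CPM it was higher by 1.46 (SE 0.213) without and 1.74 (SE 0.0532) with the transgene, where Vamp3 differed by −5.73 (SE 5.33) and −13.8 (SE 2.62). The related genes Vamp1 and Vamp2, which also matched the chromosome 19 copy at a lower identity, overlapped between Plekhg5 genotypes on both backgrounds.

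**Figure D4:**
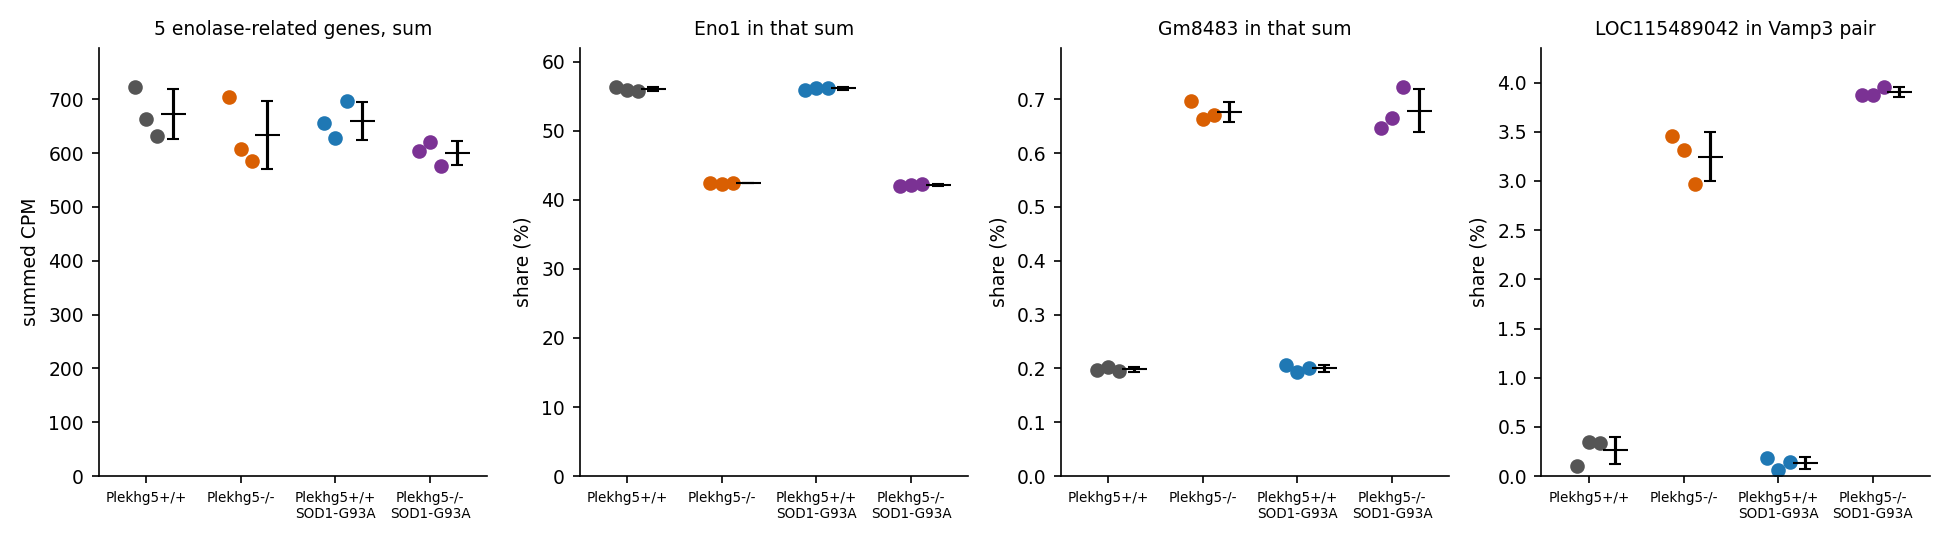
Summed CPM of the 5 enolase-related genes, shares of Eno1 and Gm8483 in that sum, and share of LOC115489042 in its sum with Vamp3 (y axes, CPM or percent), by library (points) with mean and SD (bars) for the 4 genotypes. The sums overlap between Plekhg5 genotypes without the transgene and do not with it (627 to 698 against 576 to 621 CPM). The mean share of Eno1 is 56.0% with and 42.4% without Plekhg5 in mice without the transgene, and the members' shares are higher without Plekhg5.

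No tested gene overlapped either member, and overlap with genes that failed the filter was not counted. Within 1 Mb of Gm8483, 9 of 24 listed genes were tested, and within 1 Mb of LOC115489042, 33 of 57. edgeR called 0 of them in either Plekhg5 comparison, with 0 and 0 genes near Gm8483 and 1 and 3 near LOC115489042 at an unadjusted p under 0.05, against 5.32% and 8.64% of all genes tested. DESeq2 without the prior also called 0, and with the prior it called 1, Slc15a3, near LOC115489042 with the transgene. The median log2 difference of the neighbours was 0.00 and −0.06 around Gm8483 and −0.00 and −0.04 around LOC115489042, beside 0.01 and −0.01 over all genes.

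The nearest tested genes were Il3ra, the interleukin 3 receptor alpha subunit, 91.8 kb to one side of Gm8483, and Slc4a7, a sodium bicarbonate cotransporter, 254 kb to the other. The log2 differences of Il3ra were 0.11 (SE 0.185) and −0.30 (SE 0.176), and those of Slc4a7 −0.07 (SE 0.106) and −0.08 (SE 0.106). LOC115489042 lies between the fatty acid desaturases Fads2, 72.3 kb away, and Fads1, 2.37 kb away on the opposite strand. Fads1 had log2 differences of 0.07 (SE 0.0593) and 0.01 (SE 0.0593), and Fads2 of 0.09 (SE 0.0694) and 0.03 (SE 0.0693). All adjusted p-values of these 4 genes by edgeR were 0.613 or higher. Of the 2 members, neither had a tested neighbour with a log2 difference near its own. The members were chosen for their difference and the neighbours were not, so nothing is read from this gap in size.

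**Figure D5:**
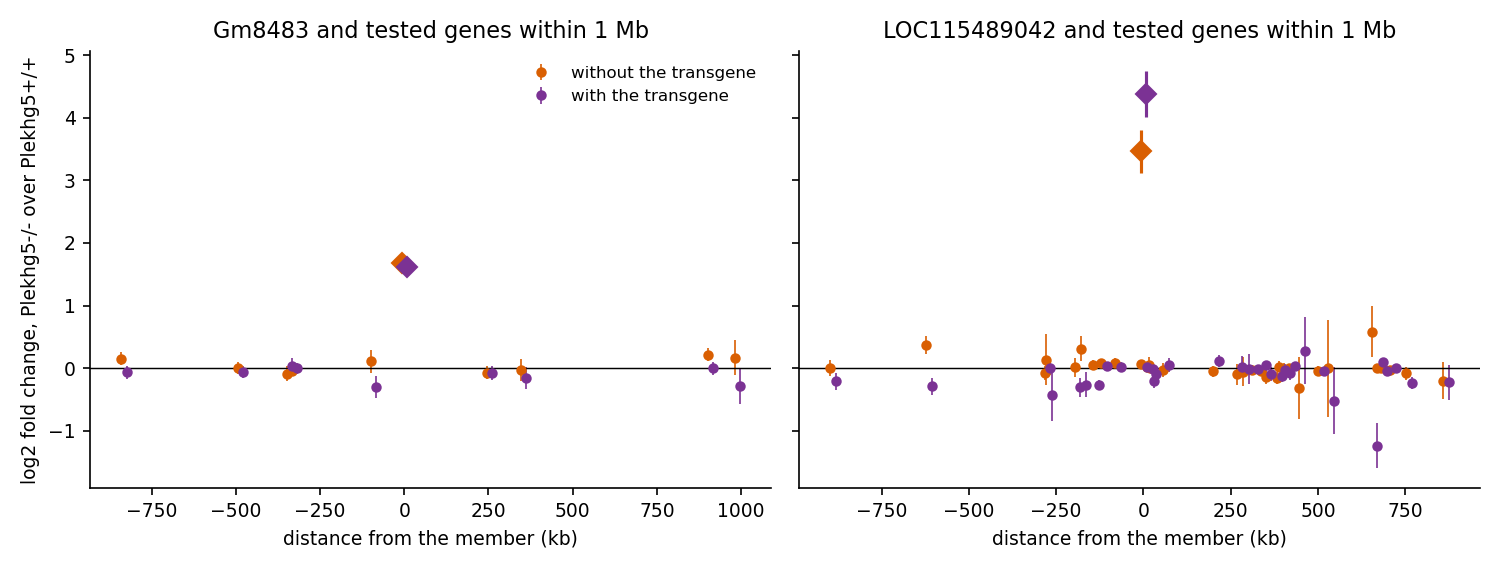
Log2 fold change of Plekhg5-/- over Plekhg5+/+ mice with SE (y axis) against distance from the member in kb (x axis), for the 9 tested genes around Gm8483 and the 33 around LOC115489042, without and with the transgene (colours, drawn slightly apart). The members (diamonds) stand at 1.69 and 1.62 and at 3.46 and 4.38, while the circles run from −1.23 to 0.58. The members were chosen for this difference and the other genes were not.

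Over the 12 libraries, the gene whose log2 CPM followed Gm8483 most closely was LOC115489042, and the reverse held too (Pearson r = 0.97). After it, Gm8483 was most like Gm30120 (r = 0.97), Eno1b (0.96), Gm5855 (0.95) and Cacng3 (0.87), a calcium channel subunit gene on chromosome 7. LOC115489042 was most like Gm30120 (0.97), Eno1b (0.91), Gm5855 (0.88) and Gm40059 (0.85), a long noncoding RNA on chromosome 3. The most opposite genes were all on chromosome 4. For Gm8483 these were Plekhg5 (r = −0.998), Slc2a5 (−0.98), Eno1 (−0.91), Tnfrsf25 (−0.90) and Plekhm2 (−0.89), and for LOC115489042 they were Plekhg5 (−0.97), Slc2a5 (−0.96), Faap20 (−0.93), Eno1 (−0.93) and 2510039O18Rik (−0.86). All points share the genotype difference that chose the members, and the correlations are descriptions over 12 libraries, given without a p.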

How the data were processed

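Polyadenylated RNA of spinal cord was sequenced from 12 mice. The authors trimmed reads with Cutadapt 2.4, mapped them with STAR 2.7.2b to GRCm38.p6 with human SOD1 cDNA added, and summarized them over RefSeq exons with featureCounts 1.6.4, by strand, giving fractions to reads with several alignments or features. The values the authors deposited are thus estimated counts per gene, not normalized, at 30415643 to 38743628 per library. Columns were matched to mice by name, with no column left over. The sources used here name no batch.

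Counts were rounded and fitted with edgeR 4.0.16 in R 4.3.3 (TMM, default filter on low counts, robust quasi-likelihood fit of 4 genotypes in 12 libraries), and p-values were adjusted over 20155 genes by the Benjamini-Hochberg method. SE is the log2 difference divided by the square root of F, and 95% intervals of log2 differences are normal ones from it. CPM are unrounded counts over TMM library sizes, and log2 CPM for correlations used a prior count of 2. GENCODE vM21 transcripts were searched with BLAST 2.17.0 on the same strand. The fit was tested on simulated data. Plots were made with Python 3.11.15 and matplotlib 3.10.9.

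The members and gene lists were chosen with earlier results of these data known. Named genes are the members, Plekhg5, human SOD1, genes overlapping a member, the nearest tested gene on each side, genes called within 1 Mb, the 5 most and 5 least correlated genes, and genes matching 75 or more bases at 90% identity or more. Exceptions are named where they occur. Alternatives were DESeq2 1.42.0 with and without a prior, its size factors in edgeR, no filter, unrounded counts, only the genotypes compared, a replicate block, Y-linked transcripts as covariate, a window of 0.5 Mb, a tolerance of 0.05, and each library left out.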

Additional observations from a re-analysis of the deposited data

How the results depend on the processing

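The log2 differences of both members with Plekhg5 loss kept their sign under all 20 alternatives and, apart from DESeq2 with a prior on fold changes, moved by less than 1 SD between replicates. With that prior, which shrinks large values, Gm8483 stood at 1.02 without and 0.97 with the transgene, and LOC115489042 at 0.85 and 0.99. With single libraries left out, Gm8483 ranged from 1.58 to 1.74 and from 1.58 to 1.67, and LOC115489042 from 3.08 to 3.70 and from 4.05 to 4.77. The SOD1G93A differences and the interaction of both members stayed past no threshold in any alternative run (lowest adjusted p = 0.295). The value of LOC115489042 with only Plekhg5+/+ and Plekhg5+/+ SOD1G93A libraries was not obtained, as it failed the filter there. The sign of the near-zero differences of Gm8483 turned in 3, 1 and 2 alternatives. Neighbour calls stayed at 0 except for 1 near LOC115489042 with the prior and the transgene (Slc15a3, named after its values were seen). A tolerance of 0.05 left 11 of 12 values of Gm8483 and 6 of 12 of LOC115489042 not whole.

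Whether replicate numbers pair the libraries cannot be told from these data. Of 18 same-number pairs, 5 had a correlation over 0.1 (range −0.163 to 0.318), and 7 of 12 libraries were closest to their own number. With the number as a block, the log2 differences were 1.68 and 1.62 for Gm8483 and 3.45 and 4.39 for LOC115489042, Eno1 still passed with the transgene and not without it (edgeR adjusted p = 0.0411 and 0.102), and 8, 8, 631, 1 and 0 genes were called in the 5 comparisons. Without the filter Eno1 passed without the transgene too (adjusted p = 0.0281), and with Y-linked transcripts as covariate it did not pass with the transgene (0.123).

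Over all genes DESeq2 called 34 and 72 genes with Plekhg5 loss (32 and 114 with the prior), 1159 and 45 with the transgene (1190 and 41). With only the genotypes compared, edgeR called 11 with Plekhg5 loss in SOD1G93A mice, and 3 and 20 with the transgene. Without the filter 1 gene was called for the interaction. The depth limits LOC115489042 most, at 1 to 5.5 counts per library with Plekhg5, and the reads were not mapped again, so where each fractional read also matched is not known here.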

Other observations

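Gm8483 is 1 of many enolase copies. The transcript search found 20 genes with a match to it, of which 13 were found in the count table by name and 7 passed the filter on low counts. Besides Eno1b and Gm5855, 1 further copy was higher in every Plekhg5-/- library on both backgrounds, Gm16103, a pseudogene on chromosome 1 that lay under the 90% identity asked for and was looked up after its values were seen. Its deposited counts were 0.5, 0.75 and 2 in Plekhg5+/+ and 5.25, 7.68 and 5.9 in Plekhg5-/- libraries. With the transgene they were 0.92, 0.45 and 0.25 against 4.73, 4.33 and 5.67. It did not pass the filter, so it has no fitted value, and 11 of its 12 values were not whole. Eno1 was the 1 gene of the 13 that was lower on both backgrounds.

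The neuronal and muscle enolases, Eno2 and Eno3, which share the enzyme's function and also matched Gm8483 at a lower identity, overlapped between Plekhg5 genotypes on both backgrounds. So did Gm33707, a pseudogene on chromosome 3 with log2 differences of 0.15 (SE 0.335) and 0.44 (SE 0.346), which passed no threshold (edgeR adjusted p = 0.997 and 0.701). A group of 6 of the 13 copies had under 10 counts in every library.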
